A study of Mus musculus with 10 samples.

Results

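The most abundant long noncoding RNAs (lncRNAs) of mouse inguinal fat were described in old mice with and without targeting of the growth hormone receptor gene, Ghr, in adipose tissue. A member was any gene that the deposited table types as lncRNA and that reached 3 FPKM (read density scaled to exon length and library size) in at least 5 of 10 libraries, whichever the genotype. Of 5863 lncRNA rows among 31285 genes, 159 were taken by level alone, and Gm32507 and Gm48832 were added by name because their change was already known, which made 161. Both also reached the level. Just inside the limit lay 1110019D14Rik and Gm11739, whose fifth-highest library held 3.006 and 3.015 FPKM, and just outside lay Gm15344 and AI480526 with 2.985 and 2.956 FPKM. The libraries came from inguinal white adipose tissue of mice aged 20 months, 5 Flox and 5 labelled GHR Knockdown. The series calls the latter Ad-GHRKO, and that name is used here. Neither the promoter behind the deletion, nor the sex, nor whether each library is a separate mouse is stated in the labels. The p-values below therefore rest on the spread among these libraries, which may be technical.

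Long noncoding RNAs are transcripts that are not known to be translated into a full-length protein. Some build nuclear bodies, as Neat1 does in paraspeckles. Others carry small nucleolar RNAs (snoRNAs) or microRNAs in their introns, lie antisense to a coding gene, or start from the same promoter region as a coding gene on the other strand. In fat cells, lncRNAs such as Lncbate1 are known for roles in the brown and beige adipocyte programme. Libraries were made from polyadenylated RNA, so lncRNAs without a poly(A) tail are under-represented.

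Depth recovered from the deposited values was about 14600000 to 19300000 reads per library. Ghr, the targeted gene, held 72.9 to 129.8 FPKM in Flox and 13.0 to 20.1 FPKM in Ad-GHRKO. The labels give no sex, but the values had the pattern of males. Over the 10 libraries Xist, made from the inactive X chromosome, held 0 to 0.0239 FPKM and the Y-linked Ddx3y 7.40 to 14.3 FPKM. The labelled tissue carried adipocyte markers at a summed 7263 to 11887 FPKM in Flox and 3655 to 10548 FPKM in Ad-GHRKO. Skeletal muscle transcripts set 3 libraries apart. The summed level of the 26 listed muscle genes ran from 39.6 to 40439 FPKM in Flox and from 79.5 to 69619 FPKM in Ad-GHRKO, and Ckm, muscle creatine kinase, was at 0 in Flox 1 and Ad-GHRKO 3. Summed over 25 of these genes, the share of reads was 18.5% in Ad-GHRKO 1, 10.5% in Flox 5, 7.28% in Flox 3, 0.243% in Ad-GHRKO 5 and 0.00837% to 0.0197% elsewhere. Ad-GHRKO 1, Flox 3 and Flox 5 are called muscle-rich below. Summed macrophage markers ran from 653 to 1967 FPKM in Flox and 953 to 2471 FPKM in Ad-GHRKO. None of 52 tested genes in 8 cell type lists passed limma's test at an adjusted p of 0.05 (6 had an unadjusted p under 0.05, and voom on recovered reads called 0). Of these 6, 5 were among the 10 adipocyte genes and 1 among the 10 macrophage genes, where 16.4% of all tested genes had such a p. Retn, Adipoq, Pnpla2 and Pparg were lower in Ad-GHRKO (log2(FPKM + 1) difference -1.33, -1.01, -0.64 and -0.63). Lep was higher (1.35), and the median of the 10 adipocyte genes was -0.25. In bulk tissue, fewer cells of a type and less RNA per cell cannot be told apart.

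The clearest difference between the genotypes was in Gm32507 and Gm48832, both of unnamed function. They were chosen for it, so their values are a description without a test. Gm32507 (ENSMUSG00000110157) lies at chr8:64937959-64943988 on the plus strand of GRCm38. Its transcript in GENCODE M21 has 3 exons and 437 bases. Exons 1 and 2 (chr8:64937959-64942598) are printed spliced, with exon 2 in capitals, because they identify the RNA that was low in Ad-GHRKO.
Gm32507 exons 1 and 2: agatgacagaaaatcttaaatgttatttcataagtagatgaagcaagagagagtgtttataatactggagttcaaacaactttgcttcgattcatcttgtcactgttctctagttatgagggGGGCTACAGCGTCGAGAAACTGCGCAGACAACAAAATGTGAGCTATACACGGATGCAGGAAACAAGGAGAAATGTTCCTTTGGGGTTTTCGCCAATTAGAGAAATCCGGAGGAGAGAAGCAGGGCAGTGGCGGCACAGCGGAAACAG
Gm48832 (ENSMUSG00000111840) lies at chr9:85332352-85348065 on the minus strand, with 2 exons of 63 and 3246 bases in the transcript shown. Its first exon is printed in lower case, and the start of exon 2 follows in capitals (chr9:85335538-85348065).
Gm48832 exon 1 and start of exon 2: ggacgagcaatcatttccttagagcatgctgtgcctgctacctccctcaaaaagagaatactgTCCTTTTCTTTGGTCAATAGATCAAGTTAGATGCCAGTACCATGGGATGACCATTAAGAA

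Gm32507 held 6.78, 13.3, 9.21, 7.95 and 8.05 FPKM in Flox 1 to 5, and 0.750, 0.477, 0.970, 1.07 and 0.783 FPKM in Ad-GHRKO 1 to 5. The highest Ad-GHRKO library lay below the lowest Flox library. The reads behind these values were 47 to 104 per library in Flox and 4 to 9 in Ad-GHRKO. Group means were 9.07 ± 2.54 and 0.810 ± 0.228 FPKM (SD, n = 5 each). The pooled read ratio per depth was 11.2, with a 95% exact interval of 7.80 to 16.7 that covers counting error only. As Gm32507 was chosen for its change, the ratio and interval describe these libraries and are no test.

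Gm48832 held 3.13, 6.16, 8.34, 3.39 and 9.22 FPKM in Flox 1 to 5. In Ad-GHRKO 1 to 5 it had 2, 1, 1, 0 and 2 reads, against 170 to 601 reads in the Flox libraries. Every Ad-GHRKO library was thus at or under the floor of 3 reads, which corresponds to 0.0455 to 0.0600 FPKM. Pooled over libraries, 6 reads in Ad-GHRKO stood against 1886 in Flox, a ratio per depth of 318. Its 95% exact interval, 146 to 867, again covers counting error only and not the spread among libraries. It is no test either, as Gm48832 was also chosen for its change. Within Flox the muscle-rich libraries 3 and 5 were highest, and with the 3 muscle-rich libraries left out the log2(FPKM + 1) difference was -2.32 instead of -2.69.

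**Figure D1:**
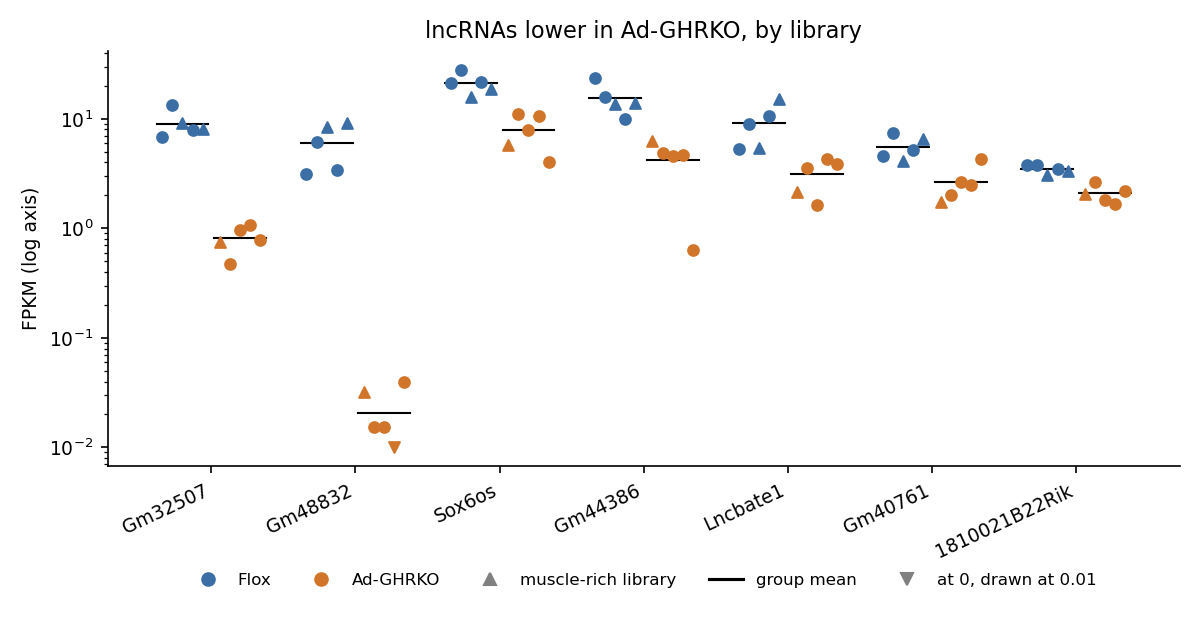
FPKM on a log axis for 7 lncRNAs in each of 10 libraries (Flox blue, Ad-GHRKO orange, triangles for the muscle-rich libraries, lines for group means). Gm48832 at 0 in Ad-GHRKO 4 is drawn at 0.01, and the groups overlap only for Gm40761 (Flox from 4.14, Ad-GHRKO up to 4.27 FPKM).

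The genes around Gm32507 included some that were lower and some that were not. Klhl2, an adaptor of a ubiquitin ligase, starts 87942 bp away on the opposite strand. It held 13.4, 15.7, 13.1, 13.2 and 10.7 FPKM in Flox 1 to 5 and 3.30, 6.84, 6.52, 7.09 and 5.93 FPKM in Ad-GHRKO 1 to 5. Klhl2 fell by 1.06 on the log2(FPKM + 1) scale used for all changes here (SE 0.180, limma adjusted p = 0.0137). Tmem192, a lysosomal membrane protein, begins 3197 bp downstream on the same strand as Gm32507. Its groups did not overlap either, at 9.26 to 15.05 FPKM in Flox and 5.65 to 9.11 FPKM in Ad-GHRKO, but it missed the threshold (log2 change -0.65, SE 0.155, limma adjusted p = 0.0565). Farther out, Msmo1, an enzyme of sterol synthesis, and Cpe, a carboxypeptidase, differed by -0.01 and 0.23 in log2 and did not pass (limma adjusted p = 0.993 and 0.875). Beyond Tmem192, the means of Trim75, Apela and Smim31 were 0 to 0.0148 FPKM, too low for the test. Around Gm48832, the nearest coding gene was Tent5a, a poly(A) polymerase, 5004 bp away on the same strand. Tent5a held 6.45 to 14.03 FPKM in Flox and 5.86 to 11.4 FPKM in Ad-GHRKO (log2 change -0.15, SE 0.214, limma adjusted p = 0.784). Ibtk lay 339295 bp away, with a log2 change of 0.21 (limma adjusted p = 0.517).

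Of the 159 lncRNAs taken by level, 5 fell in Ad-GHRKO (3.14%), none rose and 154 did not pass. Of all 12785 tested genes 2.19% passed in either direction, 1.42% as lower and 0.774% as higher, and of 521 tested lncRNAs 3.07% passed. With voom on recovered reads 1 lncRNA passed, and none as higher. One of the 5, 1810021B22Rik, reached 3 FPKM only in Flox libraries, so it entered the list through the genotype in which it was high. At an unadjusted p under 0.05 there were 32 of 159 (20.1%, against 16.4% of all tested genes), 21 lower and 11 higher. The genotypes did not overlap for 7, all lower (4.40%, against 4.97% of all tested genes, or 3.35% counting lower ones alone). The median log2 change was -0.09, against 0.04 over all tested genes. Negative changes made up 57.2% of the lncRNAs and 44.3% of all tested genes. Most changes were small, with 128 of 159 within 0.5 in either direction and a range from -1.76 to 1.57.

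**Figure D2:**
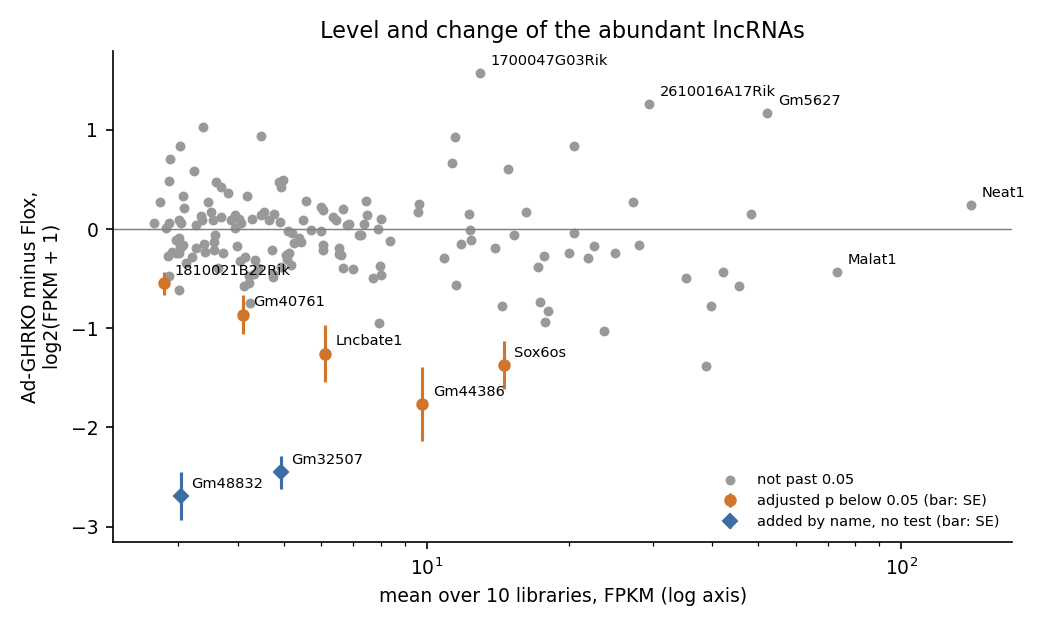
Difference in log2(FPKM + 1) between Ad-GHRKO and Flox against the mean FPKM over 10 libraries (log axis) for 161 lncRNAs. The 5 that passed are orange with SE bars, all below 0, and the 2 added by name are blue diamonds, the lowest of all at -2.45 and -2.69.

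Sox6os, antisense to the transcription factor gene Sox6, fell from 21.2 ± 4.62 to 7.88 ± 3.03 FPKM (SD, n = 5 each). It held 21.5, 28.1, 15.7, 21.9 and 18.6 FPKM in Flox 1 to 5 and 5.72, 11.04, 7.95, 10.6 and 4.07 FPKM in Ad-GHRKO 1 to 5. Every Flox library was above every Ad-GHRKO library (log2 change -1.37, SE 0.246, limma adjusted p = 0.0170). Of the 5 calls it was the only one kept when any 1 library was left out (limma adjusted p up to 0.0492). Sox6 itself, with which Sox6os overlaps, held 1.69 to 4.94 FPKM in Flox and 0.987 to 6.49 FPKM in Ad-GHRKO, with the highest value in the muscle-rich library Ad-GHRKO 1 (log2 change -0.44, limma adjusted p = 0.595). Sox6os (ENSMUSG00000030664) is annotated at chr7:116031979-116032550. The window around its RefSeq start, chr7:116031729-116032028 on the plus strand of GRCm38.p6, is shown because it is the start region of the steadiest call. Its 1 match to the motifs searched, a GC box on the other strand, is in capitals and begins 103 bases before the start.
Sox6os start window: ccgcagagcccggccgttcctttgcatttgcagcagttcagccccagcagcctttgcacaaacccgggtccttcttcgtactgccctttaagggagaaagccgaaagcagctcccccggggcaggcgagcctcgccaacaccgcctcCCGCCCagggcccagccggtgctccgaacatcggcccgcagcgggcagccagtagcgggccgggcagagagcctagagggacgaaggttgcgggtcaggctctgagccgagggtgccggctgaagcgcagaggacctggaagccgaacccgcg

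Gm44386 (ENSMUSG00000107689, chr6:86513891-86516273), between Pcbp1 and C87436, held 23.5, 15.8, 13.6, 10.1 and 13.95 FPKM in Flox 1 to 5 and 6.24, 4.86, 4.57, 4.72 and 0.638 FPKM in Ad-GHRKO 1 to 5. The groups did not overlap, and Ad-GHRKO 5 was far below the others, with 4 reads (log2 change -1.76, SE 0.369, limma adjusted p = 0.0342). Lncbate1 (ENSMUSG00000110613, chr8:108553252-108584595), a lncRNA known for supporting the brown adipocyte programme, held 5.28, 9.04, 5.42, 10.6 and 15.3 FPKM in Flox 1 to 5 and 2.15, 3.53, 1.63, 4.35 and 3.88 FPKM in Ad-GHRKO 1 to 5. Again no Ad-GHRKO library reached the lowest Flox library (log2 change -1.26, SE 0.289, limma adjusted p = 0.0493). It lies inside Zfhx3 on the opposite strand, a transcription factor gene whose levels of 0.617 to 1.05 FPKM over the 10 libraries were too low for the test. Gm40761 (ENSMUSG00000112246, chr10:111337124-111347185), between Bbs10 and Nap1l1, held 4.59, 7.43, 4.14, 5.15 and 6.51 FPKM in Flox and 1.75, 2.03, 2.66, 2.48 and 4.27 FPKM in Ad-GHRKO, so that Ad-GHRKO 5 lay above Flox 3 (log2 change -0.86, SE 0.196, limma adjusted p = 0.0475).

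1810021B22Rik (ENSMUSG00000087331, chr15:89071196-89075852) had the smallest change of the 5. It held 3.80, 3.81, 3.05, 3.50 and 3.34 FPKM in Flox 1 to 5 and 2.07, 2.68, 1.83, 1.68 and 2.21 FPKM in Ad-GHRKO 1 to 5 (log2 change -0.55, SE 0.118, limma adjusted p = 0.0383). It starts head to head with Trabd, and their RefSeq starts lie 210 bases apart. Trabd, which encodes a TraB domain protein, did not pass, with 9.24 to 13.3 FPKM in Flox and 9.50 to 12.0 FPKM in Ad-GHRKO (log2 change -0.05, SE 0.119, limma adjusted p = 0.890). The window that holds both starts, chr15:89075805-89076104 on the minus strand of GRCm38.p6, is shown with the stretch from the Trabd start to the lncRNA start in capitals, because both starts lie in it.
1810021B22Rik and Trabd start window: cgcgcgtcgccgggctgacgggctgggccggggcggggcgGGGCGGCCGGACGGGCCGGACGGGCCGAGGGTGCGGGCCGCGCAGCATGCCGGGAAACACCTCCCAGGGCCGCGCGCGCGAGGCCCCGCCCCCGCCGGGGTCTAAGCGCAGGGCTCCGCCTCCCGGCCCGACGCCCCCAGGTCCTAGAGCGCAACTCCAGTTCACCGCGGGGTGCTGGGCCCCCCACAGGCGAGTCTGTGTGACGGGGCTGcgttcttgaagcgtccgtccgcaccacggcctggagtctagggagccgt
The calls of Gm44386, Lncbate1, Gm40761 and 1810021B22Rik each ended when any of 8 of the 10 libraries was left out (limma adjusted p up to 0.0866, 0.126, 0.120 and 0.117), while their log2 changes stayed negative. Of the 9 tested coding neighbours of the 5 called lncRNAs 0 had an unadjusted limma p under 0.05, against 16.4% of all tested genes. None of the 9 passed limma, and 0 passed with voom. Besides Sox6 and Trabd these were 1110004F10Rik (log2 change 0.13) beside Sox6os, Pcbp1, an RNA-binding protein (-0.06), and C87436 (-0.05) beside Gm44386, and Selenoo, a selenoprotein (-0.03), beside 1810021B22Rik. Psmd7, a proteasome subunit 964788 bp from Lncbate1, had a log2 change of 0.08, and Bbs10 and the histone chaperone Nap1l1, on either side of Gm40761, had -0.07 and 0.33 (limma adjusted p from 0.595 to 0.947 over the 9).

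A further 3 lncRNAs had groups that did not overlap and missed the threshold. Gm15417, antisense to Zbtb7b, held 14.8 to 22.9 FPKM in Flox and 6.76 to 12.9 FPKM in Ad-GHRKO (log2 change -0.77, limma adjusted p = 0.0584). Fam120aos, which starts 270 bases from Fam120a, held 4.34 to 5.63 FPKM in Flox and 2.03 to 3.64 FPKM in Ad-GHRKO (log2 change -0.57, limma adjusted p = 0.0637). Gm454 also stood apart, with 42.3 to 64.7 FPKM in Flox and 8.80 to 40.3 FPKM in Ad-GHRKO (log2 change -1.38, limma adjusted p = 0.0633). Gm454 and Fam120aos had their lowest value in Ad-GHRKO 1, which is muscle-rich. Without that library both passed, at -1.10 and -0.47 in log2 (limma adjusted p = 0.0350 and 0.0255), as did Gm15417 (-0.82, limma adjusted p = 0.0327). Without all 3 muscle-rich libraries Fam120aos and Gm15417 passed (limma adjusted p = 0.0388 and 0.0399). Gm454 did not pass there (-1.20, limma adjusted p = 0.0720).

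In level, 3 lncRNAs had a mean over 50 FPKM, 36 lay between 10 and 50, 43 between 5 and 10, and 79 below 5. The highest was Neat1, the scaffold of paraspeckles, with 160, 198, 107, 108 and 79.6 FPKM in Flox 1 to 5 and 96.1, 156, 179, 137 and 186 FPKM in Ad-GHRKO 1 to 5. The groups overlapped widely (log2 change 0.24, SE 0.265, limma adjusted p = 0.711). Malat1, a nuclear speckle RNA and the next in order, held 72.8 to 95.5 FPKM in Flox and 43.9 to 102.3 FPKM in Ad-GHRKO (log2 change -0.43, SE 0.207, limma adjusted p = 0.330). Gm5627, the third of them, held 25.9, 56.2, 17.3, 17.6 and 45.2 FPKM in Flox 1 to 5 and 36.9, 122, 66.7, 80.5 and 54.0 FPKM in Ad-GHRKO 1 to 5 (log2 change 1.17, SE 0.381, limma adjusted p = 0.148).

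Next in level came 2900097C17Rik, Gm10076, 2410006H16Rik, AC087871.1, Gm454, AW112010 and 2610016A17Rik. Their group means lay between 16.8 and 54.8 FPKM, and the ranges over the 10 libraries overlapped between each and the next in order, as they did between Neat1, Malat1 and Gm5627. Gm10076 held 39.8 to 75.0 FPKM in Flox and 27.7 to 42.3 FPKM in Ad-GHRKO (log2 change -0.57, limma adjusted p = 0.138), and without the 3 muscle-rich libraries it passed as lower (-0.69, limma adjusted p = 0.0364). With only Ad-GHRKO 1 left out it did not pass (-0.48, limma adjusted p = 0.102). AC087871.1 held 28.7 to 104.2 FPKM in Flox and 16.2 to 38.9 FPKM in Ad-GHRKO (log2 change -0.77, limma adjusted p = 0.281). The steadiest was 2900097C17Rik, at 40.3 to 51.5 FPKM in Flox and 46.9 to 57.9 FPKM in Ad-GHRKO (log2 change 0.15, limma adjusted p = 0.587). AW112010, an RNA induced in immune cells, held 19.7 to 61.4 FPKM in Flox and 19.4 to 33.6 FPKM in Ad-GHRKO (log2 change -0.49, limma adjusted p = 0.419). None of the 10 lncRNAs of highest level passed limma's test, and 0 passed with voom. An unadjusted p under 0.05 was held by 5 of the 10, where 16.4% of all tested genes had such a p.

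**Figure D3:**
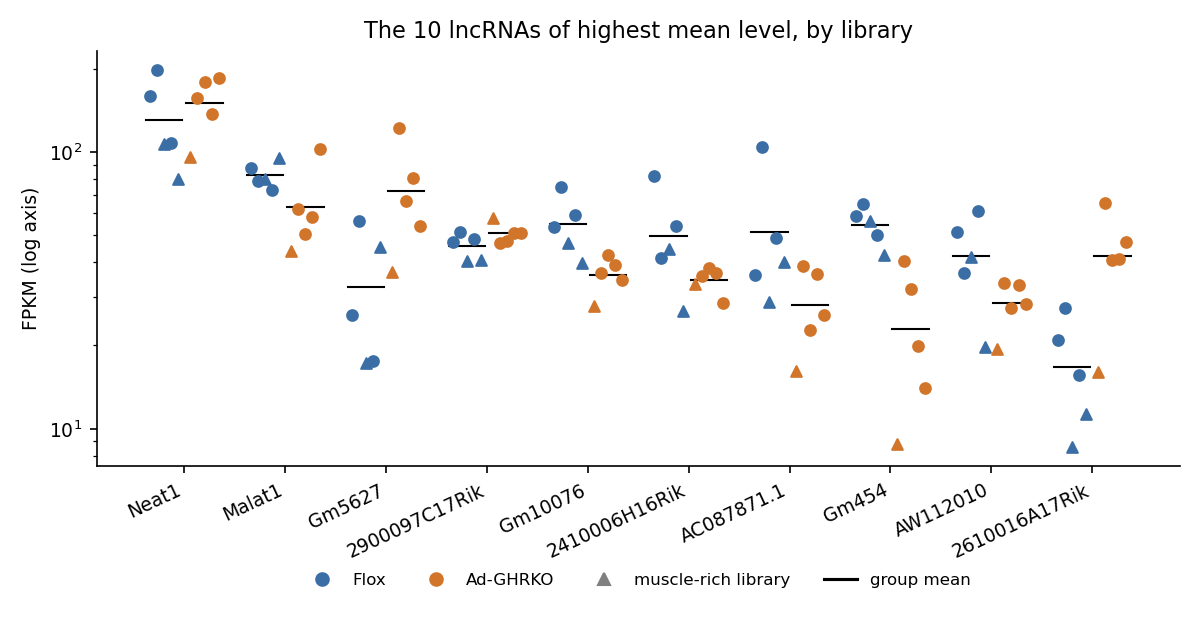
FPKM on a log axis for the 10 lncRNAs of highest mean level, by library (Flox blue, Ad-GHRKO orange, triangles for the muscle-rich libraries, lines for group means). Gm454 is the 1 of the 10 whose groups do not overlap, with Flox from 42.3 and Ad-GHRKO up to 40.3 FPKM.

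Grouped by role, none of the lncRNAs that carry small RNAs passed. By annotation, 14 of the 159 span a snoRNA on their own strand, the guides of ribosomal RNA modification. Their mean levels ran from 3.08 to 42.0 FPKM, and their median log2 change was -0.20 with 11 of 14 negative. None passed limma (0 at an unadjusted p under 0.05, against 16.4% of all tested genes, and 0 with voom). The most abundant, 2410006H16Rik, carries Snord49a, Snord49b and Snord65 and held 26.7 to 81.6 FPKM in Flox and 28.4 to 37.9 FPKM in Ad-GHRKO (log2 change -0.43, limma adjusted p = 0.424). Gas5, a host of many box C/D snoRNAs, was at 12.5 ± 3.43 and 12.2 ± 2.72 FPKM (log2 change -0.01, limma adjusted p = 0.987). Epb41l4aos was at 15.9 ± 9.53 and 12.0 ± 2.37 FPKM (log2 change -0.20, limma adjusted p = 0.843). Snhg5 was at 14.3 ± 6.08 and 8.71 ± 1.24 FPKM (log2 change -0.56, limma adjusted p = 0.339). Snhg8 was at 19.8 ± 6.19 and 14.5 ± 1.68 FPKM (log2 change -0.38, limma adjusted p = 0.369), and with the 3 muscle-rich libraries left out it passed as lower (log2 change -0.69, limma adjusted p = 0.0382). With only Ad-GHRKO 1 left out it did not pass (-0.40, limma adjusted p = 0.240). Of 13 tested proteins of the snoRNA particles 2 had an unadjusted limma p under 0.05, against 16.4% of all tested genes. None of the 13 passed limma, and 0 passed with voom. Among them Ruvbl2, an assembly factor, had the smallest p (14.9 ± 0.381 and 10.9 ± 1.04 FPKM, log2 change -0.41, limma adjusted p = 0.0659), and Naf1, another assembly factor, followed (0.30, limma adjusted p = 0.262).

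None of 6 microRNA hosts passed limma (1 at an unadjusted p under 0.05, against 16.4% of all tested genes, and 0 with voom). Mir22hg, the host of miR-22, was the most abundant of them. It held 8.42, 17.2, 13.0, 16.9 and 12.3 FPKM in Flox 1 to 5 and 12.5, 23.6, 23.0, 21.5 and 56.3 FPKM in Ad-GHRKO 1 to 5, so only Ad-GHRKO 1 lay within the Flox range (log2 change 0.83, SE 0.330, limma adjusted p = 0.235). It overlaps Tlcd2 on the same strand, where reads of both can be mixed, and Tlcd2 had a log2 change of -0.04. Mir142hg, expressed in blood cells, was at 5.08 ± 2.49 and 3.64 ± 0.960 FPKM (limma adjusted p = 0.637). Among imprinted and X-linked lncRNAs, Peg13, which lies inside Trappc9, was at 20.7 ± 3.24 and 20.3 ± 4.37 FPKM (log2 change -0.04, limma adjusted p = 0.945), and Firre, an X-linked nuclear organizer, at 11.6 ± 3.27 and 12.9 ± 3.10 FPKM (limma adjusted p = 0.786). Bvht, named for a role in heart development, was at 22.4 ± 7.05 and 32.0 ± 24.3 FPKM (limma adjusted p = 0.786), with 73.7 FPKM in Ad-GHRKO 5 alone. Gm26917 (chr17:39843013-39846341) was at 32.5 ± 11.5 and 14.9 ± 4.21 FPKM (log2 change -1.02, limma adjusted p = 0.0945). Whether its reads come from ribosomal RNA was not tested. Tug1, a broadly expressed intergenic lncRNA, was at 5.69 ± 0.952 and 5.17 ± 1.30 FPKM (log2 change -0.13, limma adjusted p = 0.762). Of 31 tested genes in the 5 lncRNA lists 4 had an unadjusted limma p under 0.05, against 16.4% of all tested genes. None of the 31 passed limma, and 0 passed with voom. The same held for 49 tested proteins of paraspeckles, speckles, snoRNA particles and imprinted loci (8 at an unadjusted p under 0.05, 0 with voom). Of these 8, 6 were among the 13 imprinted genes, all higher in Ad-GHRKO, and 2 among the 13 snoRNA particle proteins. Over all tested genes 16.4% had such a p, and the median log2 change of the 13 imprinted genes was 0.38. Peg10, an imprinted gene of retroviral origin, came nearest of the 49 (1.24 ± 0.175 and 8.16 ± 6.76 FPKM, log2 change 1.72, limma adjusted p = 0.0579). Among the imprinted genes alone, the receptor Igf2r had the next smallest p (0.38, limma adjusted p = 0.181). The paraspeckle proteins of smallest p, Pspc1 and Tardbp, both had 0.21 (limma adjusted p = 0.509 and 0.525), and the speckle splicing factors Srsf3 and Srsf2 had 0.27 and 0.23 (limma adjusted p = 0.590 and 0.655).

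By position, 57 of the 159 lay between coding genes, 50 started within 2 kb of a coding gene on the other strand (head to head), 42 otherwise overlapped a coding gene on the opposite strand and 10 overlapped one on the same strand. The 5 that fell were 2, 1, 2 and 0 of these classes, and the medians of log2 change were -0.13, -0.15, 0.08 and 0.11. Whether counting used strand is not stated, so values of the overlapping genes can share reads. Of 300 tested coding neighbours of the 161 lncRNAs, 6 passed (2%, against 2.23% of all tested coding genes), 3 higher and 3 lower. Klhl2, 1 of the lower ones, is a neighbour of Gm32507, which was added by name because its change was already known. One of the higher ones, Sphk1, reached the 1 FPKM needed for the test only in Ad-GHRKO libraries, so it was tested only through the genotype in which it was high. No lncRNA taken by level passed together with a coding neighbour.

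The neighbour with the smallest p was Zfp949, a zinc finger gene that starts 25091 bp from Snhg5. It held 4.22, 3.75, 3.03, 3.57 and 2.41 FPKM in Flox 1 to 5 and 7.33, 10.2, 13.3, 9.84 and 13.5 FPKM in Ad-GHRKO 1 to 5 (log2 change 1.42, SE 0.177, limma adjusted p = 0.00237). Zfp949 rose where the change of Snhg5 was -0.56. Zfp36, an RNA-binding protein that speeds decay of inflammatory transcripts and is induced quickly by stimuli, starts 1273 bp from Gm44710 and overlaps it. Zfp36 held 16.9 to 35.5 FPKM in Flox and 44.0 to 91.2 FPKM in Ad-GHRKO (log2 change 1.31, SE 0.252, limma adjusted p = 0.0242), while Gm44710 was at 1.78 to 4.78 and 0.872 to 3.86 FPKM (log2 change -0.18, limma adjusted p = 0.817). Sphk1, a sphingosine kinase 56651 bp from Gm11739, held 0.198 to 0.434 FPKM in Flox and 1.22 to 2.82 FPKM in Ad-GHRKO (log2 change 0.98, SE 0.158, limma adjusted p = 0.0109, or 0.0415 with no filter on low values), beside 0.06 for Gm11739 (limma adjusted p = 0.925).

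The neighbours that fell were Klhl2, described above, Cdkn2c and Ndufv3. Cdkn2c, an inhibitor of cyclin-dependent kinases, lies 3023 bp from 9630013D21Rik on the same strand. It held 52.3 to 110.5 FPKM in Flox and 21.1 to 51.2 FPKM in Ad-GHRKO (log2 change -1.26, SE 0.276, limma adjusted p = 0.0416), and 9630013D21Rik had a log2 change of -0.61 (limma adjusted p = 0.232). Ndufv3, a subunit of respiratory complex I, lies 35832 bp from AC166575.1 and held 40.6 to 60.1 FPKM in Flox and 23.7 to 33.9 FPKM in Ad-GHRKO (log2 change -0.71, SE 0.159, limma adjusted p = 0.0468), beside -0.24 for AC166575.1 (limma adjusted p = 0.590). The calls of Zfp36, Cdkn2c and Ndufv3 ended when any of 7, 7 and 9 of the libraries was left out (limma adjusted p up to 0.0732, 0.111 and 0.121), and those of Zfp949 and Klhl2 did not.

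Over 302 pairs of a lncRNA taken by level and a tested coding neighbour, the changes had the same sign in 167 (55.3%), where adjacent tested coding genes did so in 57.0% of 11123 pairs. Pairs share libraries and some share a gene, so no test was made. The 69 overlapping pairs had the same sign in 42 (60.9%), with Pearson r = 0.58 and Spearman rho = 0.42 across pairs. Overlapping genes can share reads, and how far this enters the 0.58 was not tested. The 47 head-to-head pairs had it in 23 (48.9%). For all 156 pairs that overlapped or lay within 10 kb r was 0.40, and for the 146 farther pairs r was 0.16. Adjacent coding genes that overlapped or lay within 10 kb had r = 0.19 over 4314 pairs, which stands beside the 0.40. Overlapping coding pairs were not taken alone, so the 0.58 has no like comparison.

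**Figure D4:**
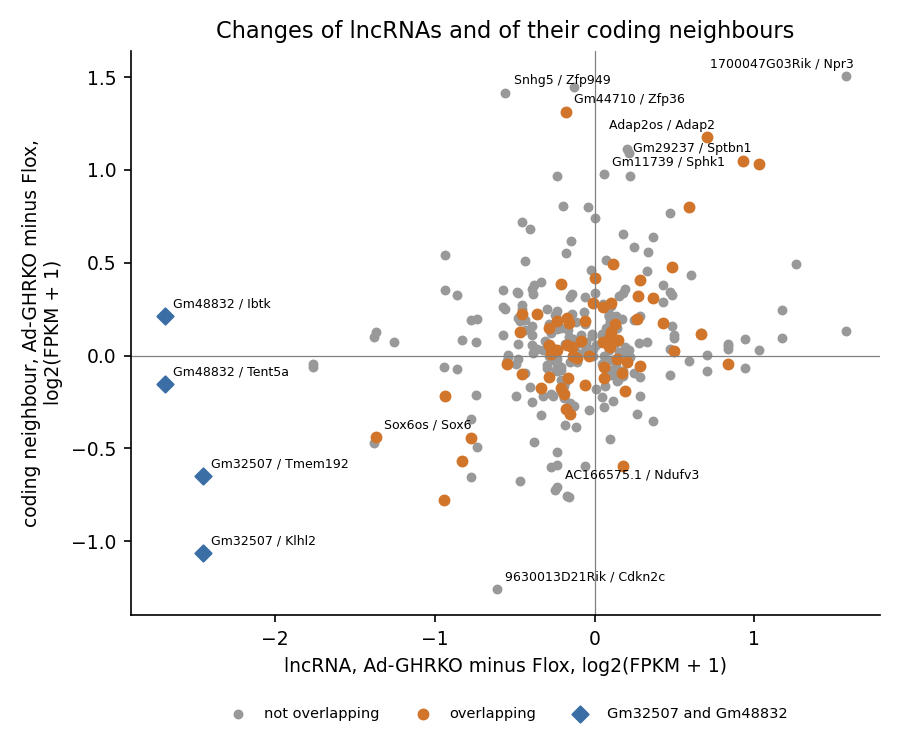
Difference in log2(FPKM + 1) between Ad-GHRKO and Flox for each lncRNA (x axis) and its tested coding neighbours (y axis), with overlapping pairs in orange and Gm32507 and Gm48832 as blue diamonds. Gm32507 lies beside Klhl2 (-1.06) and Tmem192 (-0.65), whereas the neighbours of Gm48832 lie near 0 (-0.15 and 0.21).

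Several lncRNAs were higher in 4 of the 5 Ad-GHRKO libraries and at Flox levels in the muscle-rich Ad-GHRKO 1. 2610016A17Rik, which starts 158 bases from the transcription factor gene Dmrt2, held 20.9, 27.4, 8.56, 15.7 and 11.3 FPKM in Flox 1 to 5 and 16.04, 65.1, 40.8, 41.1 and 47.3 FPKM in Ad-GHRKO 1 to 5 (log2 change 1.26, limma adjusted p = 0.119). 1700047G03Rik held 1.83 to 9.53 FPKM in Flox, 7.21 FPKM in Ad-GHRKO 1 and 15.1 to 37.8 FPKM in the other Ad-GHRKO libraries, the largest positive change of the 159 (log2 change 1.57, limma adjusted p = 0.0865). Gm29237, inside Sptbn1, held 5.27 to 12.5 FPKM in Flox, 6.10 FPKM in Ad-GHRKO 1 and 16.9 to 19.2 FPKM in the other Ad-GHRKO libraries (log2 change 0.93, limma adjusted p = 0.144). Adap2os, antisense to Adap2, held 0.907 to 3.08 FPKM in Flox, 0.9996 FPKM in Ad-GHRKO 1 and 3.74 to 6.08 FPKM in the others (log2 change 0.70, limma adjusted p = 0.296).

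Without Ad-GHRKO 1, 16 of the 159 passed (10.1%, against 9.27% of all tested genes), 8 higher and 8 lower, the 5 called with all libraries among them. The other higher ones, beside the 4 just described, were Gm5627, Gm43150, Gm12236 and Gm28913. Without the 3 muscle-rich libraries 10 passed (6.29%, against 6.08%), 4 higher and 6 lower, and 8 lncRNAs passed in both. Of the 5 called with all libraries, Sox6os and 1810021B22Rik passed there (limma adjusted p = 0.0355 and 0.0395), and Gm44386, Lncbate1 and Gm40761 did not (limma adjusted p = 0.0553, 0.0677 and 0.0688). The 4 higher ones were 2610016A17Rik, 1700047G03Rik, Gm29237 and Adap2os, which differed in log2 by 1.16, 1.74, 1.33 and 0.87 (limma adjusted p = 0.0326, 0.0276, 0.00186 and 0.0488). In the same fit, Npr3, the natriuretic peptide clearance receptor 56989 bp from 1700047G03Rik, had a log2 change of 1.52 (limma adjusted p = 0.0275), Sptbn1, a spectrin, 1.21 (0.00963), Adap2, a GTPase regulator, 1.38 (0.0276) and Dmrt2 0.96 (0.0700). With all libraries these 4 neighbours had log2 changes of 1.504, 1.05, 1.18 and 0.49 and did not pass (limma adjusted p = 0.0584, 0.115, 0.0974 and 0.627). Reads of Gm29237 and Sptbn1, and of Adap2os and Adap2, come from overlapping genes. Without the 3 muscle-rich libraries the other tested neighbours of these 4 lncRNAs, Sub1, Tefm and Rnf135, had log2 changes of 0.01, 0.08 and -0.14. No tested neighbour of the 6 lower lncRNAs passed in that fit (limma adjusted p from 0.112 to 0.860). Of all 300 tested neighbours 16 passed there (5.33%, against 6.08% of all tested genes).

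Some lncRNA levels also set the muscle-rich libraries apart. The lowest value of a lncRNA was in Ad-GHRKO 1 for 56 of 161 and in Flox 5 for 47. All 3 muscle-rich libraries lay below all others for 23 (14.3%, against 14.6% of tested genes) and above all others for 3 (1.86%, against 4.34%). Gm12319, which starts 709 bases from the muscle enolase gene Eno3, held 34.0, 41.6 and 55.7 FPKM in Flox 3, Flox 5 and Ad-GHRKO 1 and 7.22 to 12.4 FPKM in the others, a ratio of means of 4.46. 1700020I14Rik held 19.6 to 31.1 FPKM in the muscle-rich libraries and 10.1 to 13.4 FPKM in the others, a ratio of 2.08. For AC158975.2 the ratio was 1.4996. H19, an imprinted lncRNA expressed in muscle, was no member. It held 23.1, 37.3 and 39.7 FPKM in these 3 libraries and 0.148 to 1.03 FPKM elsewhere. The part of muscle RNA in the differences between genotypes was not tested beyond the fits given here.

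**Figure D5:**
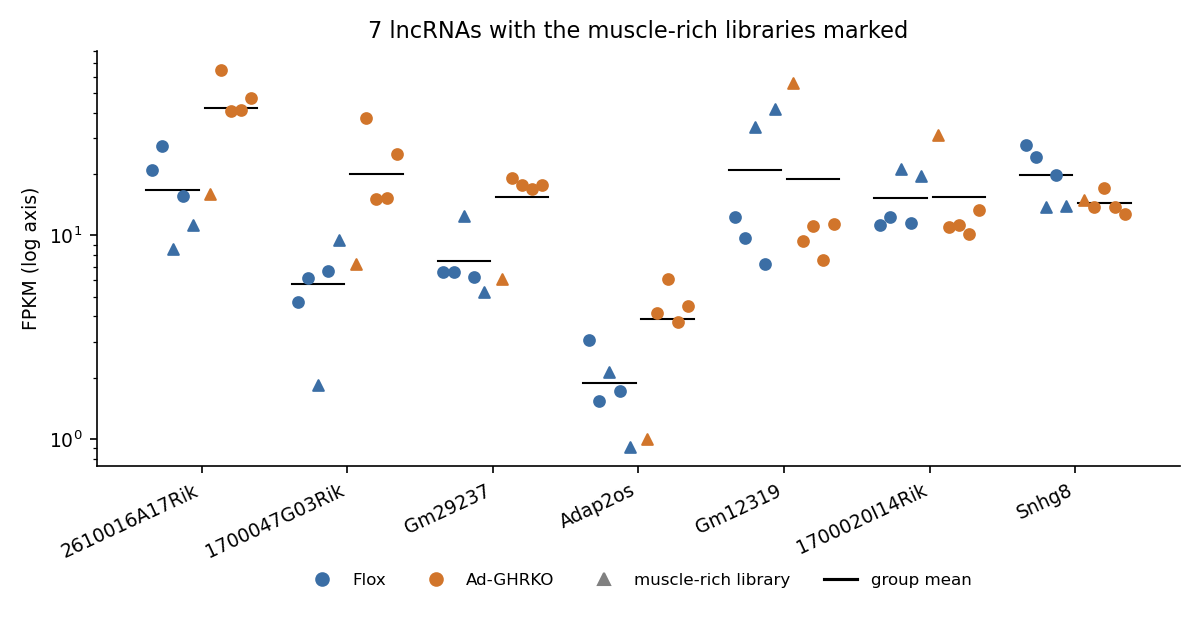
FPKM on a log axis by library for 7 lncRNAs, with the muscle-rich libraries as triangles (Flox blue, Ad-GHRKO orange, lines for group means). For 2610016A17Rik, 1700047G03Rik, Gm29237 and Adap2os the Ad-GHRKO triangle lies among the Flox points, and for Gm12319 and 1700020I14Rik all 3 triangles lie above the other points.

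RefSeq start windows of 300 bases (250 before and 50 after the start) were at hand for 86 of the 161 lncRNAs. For each, the window nearest its annotated start was taken. Some RefSeq starts lay far from it, by 18240 bases for Gm28913, 13931 for Ctcflos and 5361 for Gm40761, while others, such as that of Sox6os, lay at it. On either strand, the core STAT5 motif TTCNNNGAA, bound by the factor that growth hormone signalling activates, was present in 4 windows (4.65%, against 8.30% of 32851 RefSeq windows), and in neither window printed above. The GC box GGGCGG was in 51 (59.3%, against 35.7%), with 4 matches in the window of 1810021B22Rik and Trabd. CCAAT was in 31 (36.0%, against 37.4%) and TATAAA in 7 (8.14%, against 13.6%). These are counts of letters in a window and say nothing of binding.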

How the data were processed

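Gene expression was measured by RNA sequencing of 10 libraries. The authors deposited FPKM values, 1 column per library, per the file headers; no source used here names the aligner or counter or says whether strand was used. The build named in the submitters' processing notes is GRCm39, but 31109 of 31253 genes shared with GENCODE M21 (99.5%) had exactly its GRCm38 coordinates, so positions are given as GRCm38. The members and all lists were chosen with earlier results of these data known.

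FPKM was multiplied by GENCODE exon length and a constant per library, which gave whole reads (tolerance 0.01) for 99.2% to 99.3% of nonzero values and for 158 of 161 members; this depth sets the precision. Genes at 1 FPKM or more in 5 or more libraries (12785) were tested on log2(FPKM + 1) with limma 3.58.1 in R 4.3.3 (mean-variance trend, two-sided, Benjamini-Hochberg over all tested genes, 0.05). The pseudocount of 1 understates changes of low genes. Because FPKM is scaled to library size, abundant muscle transcripts lower the values of other genes. The test was tried on simulated data. Neighbours were the coding genes that overlap a member and the nearest on each side. Motif windows and promoters are RefSeq's (GRCm38.p6), and transcripts are GENCODE's. Python 3.11.15 with pandas 2.3.3 and matplotlib 3.10.9 was used.

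Named were the 2 added genes, members that passed, the 10 highest, up to 4 members of each lncRNA list, neighbours of the first groups, neighbours that passed, Ghr, list proteins with the smallest p and members nearest the limit. Fam120aos, Gm15417, 1700047G03Rik, Gm29237, Adap2os and their neighbours, Gm43150, Gm12236, Gm28913, Gm12319, 1700020I14Rik, AC158975.2 and H19 were chosen after their values were seen. Alternatives were pseudocounts, filters, scalings, a replicate block, array weights, a muscle score as covariate, libraries left out, other limits of level and, added after seeing the data, voom on the recovered reads.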

Additional observations from a re-analysis of the deposited data

Results flagged for a closer look

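For the genes named in the report that are members or were tested, 170 groups of 5 libraries were checked for a library far from the rest by Dixon's test at the 95% level, and 15 had one. Chance alone gives about 1 in 20 for normally distributed values of genes chosen unseen. Several of these genes were chosen after their values were seen, so the 15 cannot be read against that rate. In Ad-GHRKO 1, the muscle-rich library, Fam120aos (2.03 FPKM, next 3.19), Gm29237 (6.10 FPKM, next 16.9) and Sptbn1 (45.7 FPKM, next 119.2) were low. In the same library Sox6 (6.49 FPKM, next 1.98), Gm12319 (55.7 FPKM, next 11.3), Eno3 (2088 FPKM, next 42.9) and 1700020I14Rik (31.1 FPKM, next 13.4) were high. In Ad-GHRKO 5, Mir22hg (56.3 FPKM, next 23.6), Gm43150 (8.82 FPKM, next 4.32), Bvht (73.7 FPKM, next 28.6) and Sphk1 (2.82 FPKM, next 1.47) were high. In Flox, Gm43150 was high in Flox 4 (3.88 FPKM, next 1.69), AC087871.1 in Flox 2 (104.2 FPKM, next 48.8), Bvht in Flox 2 (34.5 FPKM, next 21.6) and Gm29237 in the muscle-rich Flox 3 (12.5 FPKM, next 6.63).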

How the results depend on the processing

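The count of lncRNAs that passed, 5 of 159, moved with most settings. It was 3 with a pseudocount of 0.1, 0 with no filter on low values (31 at an unadjusted p under 0.05), 1 with TPM rescaling, 1 with voom on recovered reads (28 at an unadjusted p under 0.05), 11 with median ratio scaling, 11 with quantile normalization, 24 with array weights, 13 with a muscle score as covariate, 10 without the 3 muscle-rich libraries and 1 to 16 with any 1 library left out, the 16 without Ad-GHRKO 1. The share of all tested genes that passed moved too, from 2.19% to 2.07% with a pseudocount of 0.1, 0.374% with no filter, 1.83% with TPM rescaling, 2.16% with voom, 4.28% with median ratio scaling, 4.42% with quantile normalization, 13.3% with array weights, 6.62% with the muscle score and 6.08% without the 3 muscle-rich libraries. A level limit of 2 or 5 FPKM gave 8 of 247 or 3 of 82. Of 300 coding neighbours 6 passed, and, against the same shares of all genes, 3 with no filter, 21 with median ratio scaling, 19 with quantile normalization, 43 with array weights, 24 with the muscle score, 16 without the 3 muscle-rich libraries and 3 to 35 with any 1 library left out, again highest without Ad-GHRKO 1. For Gm32507 and Gm48832 the sign held in every setting run. With TPM rescaling the median change over all genes was 0.15 instead of 0.04, and that of the lncRNAs 0.00 instead of -0.09. The sign of each of the 5 called lncRNAs held in every setting run. Same-sign pairs made up 55.3% also without the 3 muscle-rich libraries.

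Correlations of same-numbered deviations ran from -0.49 to 0.39. Muscle RNA also varied among the libraries, so these correlations cannot settle whether replicate numbers pair them. With the replicate block, 2 lncRNAs and 2 neighbours passed (0.665% of all genes). For Klhl2 only the block ended the call. The cause of these shifts was not tested. At low depth, Gm32507 and Gm48832 rest on few Ad-GHRKO reads.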
